A study of Homo sapiens with 24 samples.

Results

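The cytosolic ribosomal protein genes encode the proteins of the ribosome that works in the cytoplasm, and 84 of them were followed here through 24 RNA-seq libraries. A row of the count tables was taken as a member when its symbol was RPL or RPS followed by a number, with or without an ending of A, L, X or L1, or was RPLP0, RPLP1, RPLP2 or RPSA. Pseudogenes, the RPS6K kinases and the Y-linked copies of RPS4 were left out. The 84 members were 84 of 60448 rows in all and of 19211 protein-coding rows. The rule itself uses symbols and no measured value, but earlier results of these data were known when it was set. 32 of them belong to the small subunit, which reads the messenger RNA, and 52 to the large subunit, which joins the amino acids. 7 are paralogs with an L or L1 ending (RPL3L, RPL7L1, RPL10L, RPL22L1, RPL26L1, RPL39L and RPS27L) and the other 77 include the 4 X-linked genes RPS4X, RPL10, RPL39 and RPL36A.

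A ribosome needs nearly every one of these proteins in equal number, so their genes are known to be transcribed together and at high levels. In mammals their messages begin with a C followed by an unbroken run of C and T bases, the terminal oligopyrimidine tract, through which growth signalling controls their translation. RPLP0, RPLP1 and RPLP2 form the stalk of the large subunit, RPS6 is the protein phosphorylated by the S6 kinases, and RPL5 and RPL11 can bind MDM2, the inhibitor of p53.

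The libraries came from BPH-1 and RWPE-1, human prostate epithelial lines immortalized with SV40 and HPV18. Vector control cells carried the FU-ILYW lentiviral vector with a firefly luciferase reporter (1 library of RWPE-1, 3 of BPH-1), and C-Raf parental cells carried in addition the kinase C-Raf (4 and 3). The titles of the BPH-1 vector and parental libraries add a tag for secreted Gaussia luciferase. Metastasis-derived lines (7 and 6) were grown out from lesions of C-Raf cells injected into the hearts of immunodeficient NSG mice, and their labels name lymph node, spine, bone and thymus. For the pair of BPH-1 lines numbered R075 the title and the treatment label name different sites, so no site was used. The RWPE-1 lymph node lines LN1A and LN1B likewise share a number. No label says whether the lines of such a pair came from the same animal, and the fits treated all lines as separate. BPH-1 was grown in serum and RWPE-1 in serum-free keratinocyte medium, so medium and cell line cannot be told apart. No label says that libraries of a group came from separate cultures, and p-values then measure only the spread between these libraries.

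Of the 24 libraries, 21 held between 20573135 and 42007894 counts on protein-coding genes. The BPH-1 metastasis-derived lines BONE R071, BONE R074 and BONE R075 held 464963, 132460 and 111170, and there RN7SL1, the RNA of the signal recognition particle, took 93.3 to 97.5% of all counts. In these 3 libraries 11, 28 and 65 of the 84 members had fewer than 10 counts, against 1 or 2 elsewhere, so the fits that hold them were also run without them. In the 3 deeper BPH-1 metastasis-derived lines RN7SL1 took 4.60 to 30.3%, and in the other 18 libraries at most 0.00932%. RPLP0 and RPS6 were detected in every library. Epithelial markers (KRT5, KRT8, KRT18, EPCAM and CDH1) together took between 0.0441 and 0.805% of protein-coding counts.

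The start sites of the genes show what the members have in common before any value is read. RefSeq start sites were at hand for 67 of the 84 members. In 47 of these 67 (70.1%) at least 1 start site was a C that opened a run of 5 or more C and T bases, against 5.14% of the 27305 genes with a listed start site and 6 of 69 genes for mitochondrial ribosomal proteins (8.70%). The shorter word CTTTC, searched from 10 bases before to 15 bases after the start, was found on the strand of transcription in 44.8% of members and 4.61% of all genes, and on either strand in 47.8 and 7.71%. A match describes letters and not a working element. The windows below run from 25 bases before the start to 15 bases after it, 5′ to 3′ on the strand of transcription, in the build GRCh38.p14. They are given for members to which the results below return, with 2 paralogs at the end. Capitals mark the run of C and T that opens at the start base:
RPLP0, chr12:120201097-120201136, minus strand: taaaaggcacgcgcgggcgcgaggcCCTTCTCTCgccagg
RPS6, chr9:19380222-19380261, minus strand: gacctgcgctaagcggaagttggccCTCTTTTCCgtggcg
RPS23, chr5:82278340-82278379, minus strand: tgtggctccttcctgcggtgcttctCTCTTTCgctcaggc
RPSA, chr3:39406695-39406734, plus strand: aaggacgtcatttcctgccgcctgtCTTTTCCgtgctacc
RPS27, chr1:153990737-153990776, plus strand: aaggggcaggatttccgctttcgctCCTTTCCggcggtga
RPL22L1, chr3:170870181-170870220, minus strand: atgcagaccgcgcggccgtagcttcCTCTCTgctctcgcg
RPL7L1, chr6:42879591-42879630, plus strand: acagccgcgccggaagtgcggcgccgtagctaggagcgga

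RPLP0, RPS6, RPS23, RPSA and RPS27 opened with runs of 7 to 9 bases and RPL22L1 with 6. The start of RPL7L1 in this window is a g, and no run opens there.

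The share of protein-coding counts that fell on the members varied with cell line and stage. In RWPE-1 it was 7.66% in the vector control library, 7.02, 5.67, 4.28 and 4.52% in C-Raf parental replicates 1 to 4, and between 6.27 and 6.84% in the 7 metastasis-derived lines. In BPH-1 it was 4.93, 5.08 and 5.09% in the vector control libraries and 5.16, 5.17 and 5.28% in the C-Raf parental libraries. These 2 BPH-1 groups did not overlap, and every RWPE-1 metastasis-derived line lay above every library of both.

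**Figure D1:**
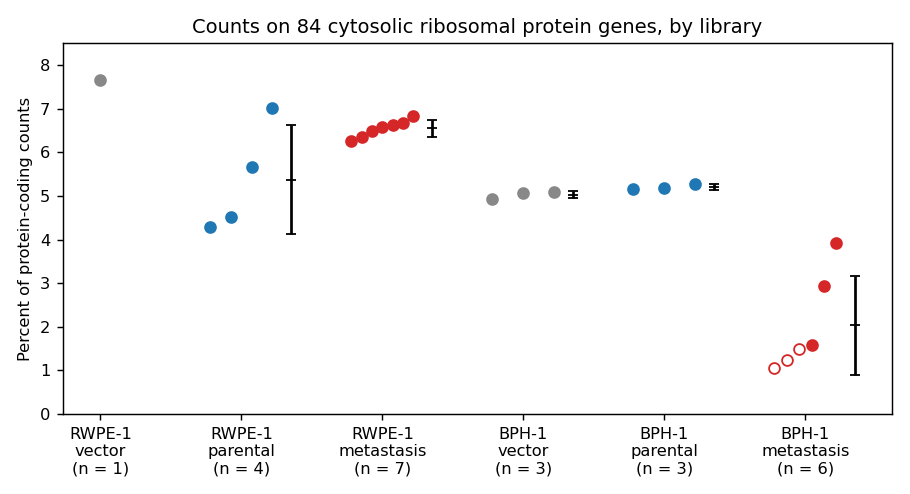
Share of protein-coding counts on the 84 members (y axis, percent) in each library, grouped by cell line and stage. Points are libraries sorted within their group, open points are the 3 libraries of few protein-coding counts, and the bar beside a group is its mean with 1 SD; the 6 BPH-1 metastasis-derived lines lie between 1.05 and 3.91%, below all other libraries.

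In the BPH-1 metastasis-derived lines the share was 3.91% in THYMUS R075, 2.94% in BONE R069 and 1.58% in BONE R072, and 1.49, 1.24 and 1.05% in the 3 shallow libraries. The genes encoded by the mitochondrial genome took 6.54 to 39.5% of protein-coding counts in these 6 lines, 2.81 to 3.45% in the BPH-1 libraries before injection and 0.490 to 2.39% in RWPE-1. With those genes out of the denominator the 3 deeper lines had shares of 4.44, 3.50 and 2.61%, still below the 5.11 to 5.46% of the BPH-1 vector and parental libraries. The large subunit genes took 1.76 to 1.80 counts for each count on small subunit genes in BPH-1 before injection and 1.49 to 1.55 in RWPE-1. In the BPH-1 metastasis-derived lines the ratio was 1.79 in BONE R069 and 1.80 in THYMUS R075, near its value before injection, 2.11 in BONE R072, and 1.83, 1.68 and 1.38 in the shallow libraries.

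C-Raf in BPH-1 cells was accompanied by a small rise of most members. Of 83 members tested, 63 rose, 3 fell and 17 did not pass with C-Raf relative to vector control (edgeR quasi-likelihood test, Benjamini-Hochberg adjusted p below 0.05), where 59.8% of all 13228 genes passed, 30.4% as higher and 29.4% as lower. The median log2 fold change of the members was 0.10 against -0.00 for all genes. The 77 members without an L or L1 ending all had positive changes, from 0.01 to 0.29, and 61 of them passed. Small and large subunit genes had medians of 0.10 and 0.12. Of the 47 members with a start run of 5 or more C and T, 36 passed, and of 19 with a listed start and no such run, 15. For 73 of 82 members with a mean of at least 1 CPM (counts scaled to library size), all 3 parental libraries lay above all 3 vector libraries, as did 36.7% of all genes, and for 2 members they lay below, as did 28.3% of all genes.

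RPL5, the partner of RPL11 in the p53 pathway, rose most among members above 10 CPM. Its levels were 546, 539 and 545 CPM in vector control and 663, 685 and 674 CPM in C-Raf parental libraries, which did not overlap. The log2 fold change was 0.29 ± 0.03 (SE, adjusted p = 7.61e-11). RPL11 went from 526, 502 and 515 CPM to 581, 586 and 578 CPM, a log2 change of 0.16 (adjusted p = 5.27e-06). RPL7 and RPL4 also rose, by 0.22 and 0.18 on the log2 scale. RPS14, whose loss causes the anaemia of the 5q deletion, rose by 0.18 (adjusted p = 1.37e-06), and RPS6 rose by 0.11 (adjusted p = 0.000604), from 895, 873 and 886 CPM to 972, 986 and 941 CPM.

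RPLP0, a common reference gene for quantitative PCR, was among the most abundant members in BPH-1. It stood at 2408, 2324 and 2377 CPM in vector control and at 2567, 2527 and 2505 CPM in C-Raf parental cells. These TMM-scaled levels did not overlap, but the gap is small beside the difference in TMM factors between the groups. The log2 change of 0.08 was small but passed (adjusted p = 0.00972), as did that of RPLP1 at 0.07 (adjusted p = 0.0179). The third stalk protein, RPLP2, had a change of 0.03 that did not pass (adjusted p = 0.247). RPSA at 0.04 (adjusted p = 0.146), a protein of the small subunit that is also known as a laminin receptor, and RPS19 at 0.02 (adjusted p = 0.582), the gene most often mutated in Diamond-Blackfan anaemia, did not pass either. RPS27A, which encodes a ribosomal protein fused to ubiquitin, rose by 0.10 (adjusted p = 0.00113). Among the X-linked members RPL10 rose by 0.17 (adjusted p = 7.15e-07), while RPS4X at 0.06, RPL39 at 0.06 and RPL36A at 0.01 did not pass.

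The 3 members that fell were all paralogs. RPS27L, which is known as a p53 target, went from 17.7, 17.5 and 16.9 CPM to 12.9, 12.8 and 12.1 CPM, a log2 change of -0.48 (adjusted p = 4.04e-08), whereas its parent RPS27 rose by 0.14 (adjusted p = 4.2e-05). RPL22L1 went from 28.7, 29.4 and 27.2 CPM to 22.9, 22.3 and 23.7 CPM, a change of -0.33 (adjusted p = 1.11e-06), whereas RPL22 rose by 0.17 (adjusted p = 3.08e-06). In both genes the groups lay apart, in the direction opposite to the parent. RPL3L was at or below 0.586 CPM in every BPH-1 vector or parental library and its change of -1.06 (adjusted p = 0.0484) rests on few counts. RPL7L1 rose by 0.21 (adjusted p = 1.38e-07) and RPL26L1 by 0.12 (adjusted p = 0.0342). RPL39L had a change of -0.11 that did not pass (adjusted p = 0.24), and RPL10L had no counts in any vector or parental library, which allows at most 0.103 CPM (3 counts).

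**Figure D2:**
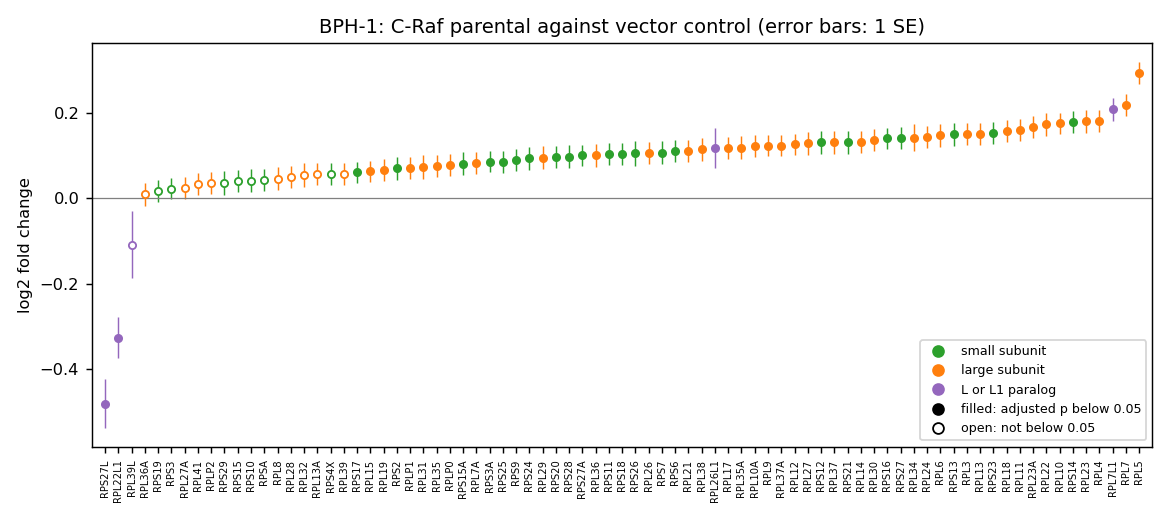
Log2 fold change of C-Raf parental against vector control in BPH-1 (y axis, 3 libraries each) for 79 members ordered by size on the x axis, with error bars of 1 SE; filled points passed an adjusted p of 0.05. Nearly all points lie just above 0, RPL5 is highest at 0.29, and the paralogs RPS27L and RPL22L1 lie lowest at -0.48 and -0.33; RPL3L is left out for its few counts.

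The spread between the BPH-1 replicates that carry this comparison was small, with a common biological coefficient of variation of 2.43%. Pairs of replicates still differed by more than counting noise, with a mean chi-square per gene of 2.26 to 12.9 where counting noise alone gives about 1. Lists of other genes were counted in this comparison, with no test between the lists. Of 38 ribosome biogenesis genes, 37 were higher (median 0.25), among them the nucleolar proteins NPM1 at 0.30 and NCL at 0.23, the methyltransferase FBL at 0.22 and the RNA polymerase I subunit POLR1B at 0.40 on the log2 scale. 56 of 77 mitochondrial ribosomal protein genes were higher and 1 was lower, with a median of 0.16, and 20 did not pass. Of 76 nuclear oxidative phosphorylation genes tested, 48 were higher, 1 was lower and 27 did not pass. Of 14 other genes whose messages open with the same tract, 9 were higher, for example TPT1 at 0.22 and EEF1A1 at 0.16, and EEF1G at -0.01 and EEF2 at 0.02 did not pass. Of the ribosomal genes whose names the rule does not cover, FAU and RACK1 (listed as GNB2L1) rose by 0.14 and 0.11, and RPL36AL at 0.06 did not pass.

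Marker lists of other cell types differed between the same BPH-1 libraries. Haematopoietic markers (PTPRC, LAPTM5, SPI1, CD74 and HBB) took 0.0189 to 0.0201% of protein-coding counts in vector control and 0.0122 to 0.0123% in C-Raf parental cells, with PTPRC and CD74 lower and LAPTM5 higher of 3 tested. Fibroblast markers (COL1A1, COL1A2, COL3A1, DCN and LUM) took 0.00277 to 0.00305% and 0.00120 to 0.00122%, with both genes tested, COL1A1 and DCN, lower. Endothelial markers (PECAM1, CDH5, VWF, KDR and CLDN5) took 0.000125 to 0.000158% and 0.000165 to 0.000180%, with CDH5 higher of 2 tested. Of the 5 epithelial markers KRT5 and EPCAM were higher and KRT8 and CDH1 lower. The part of these differences in the member levels was not tested.

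RWPE-1 went the other way. The single vector control library allows no replicate check, so no test is given. All 4 C-Raf parental libraries lay below it for 79 of the 83 members, where 29.8% of all genes did so, and above it for 1 member, where 28.8% did so. The median difference of the 77 members without an L or L1 ending from the vector library, on the log2(CPM + 1) scale, was -0.11, -0.45, -0.93 and -0.87 in parental replicates 1 to 4. RPLP0 was at 2179 CPM in vector control and at 1958, 1293, 785 and 837 CPM in the parental libraries. RPS6 was at 1827 CPM against 1642, 1208, 789 and 856 CPM, and RPL5 at 1388 CPM against 1295, 1057, 670 and 746 CPM. Replicate 1, which shares its table with the vector library, was the closest to it for each of these genes, and replicates 3 and 4 were the farthest.

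The members shifted together within each RWPE-1 parental library. Medians of other lists against the same vector library follow, with no test between the lists. The 14 other genes with the same tract were at -0.13, -0.50, -1.09 and -1.04 in replicates 1 to 4. Mitochondrial ribosomal protein genes were at -0.04, -0.15, -0.47 and -0.39, and oxidative phosphorylation genes at -0.14, -0.29, -0.55 and -0.48. Ribosome biogenesis genes were at 0.09, 0.03, -0.35 and -0.32. Among the members a few paralogs stood apart. RPL39L was higher in all 4 parental libraries, at 14.1, 16.1, 15.7 and 14.6 CPM against 13.7 CPM, a small margin. RPS27L was at 23.7 CPM in vector control and at 20.8, 27.9, 30.9 and 33.8 CPM, below it in replicate 1 and above it in the others. RPL7L1 was at 309 CPM against 328, 339, 261 and 263 CPM. RPL22L1 lay below vector with the bulk of the members, from 31.8 CPM to 31.2, 20.8, 14.8 and 18.0 CPM. The members without an L or L1 ending therefore lay on opposite sides of vector control in the cell lines, with 77 of 77 above the mean of the vector libraries in every BPH-1 parental library and 77 of 77 below the vector library in every RWPE-1 parental library, whereas RPL22L1 lay below vector control in both. This difference was not tested. Epithelial markers stood lower too, at 0.805% of protein-coding counts in the vector library and 0.544, 0.350, 0.212 and 0.217% in parental replicates 1 to 4, and the part of such differences between libraries was not tested.

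**Figure D3:**
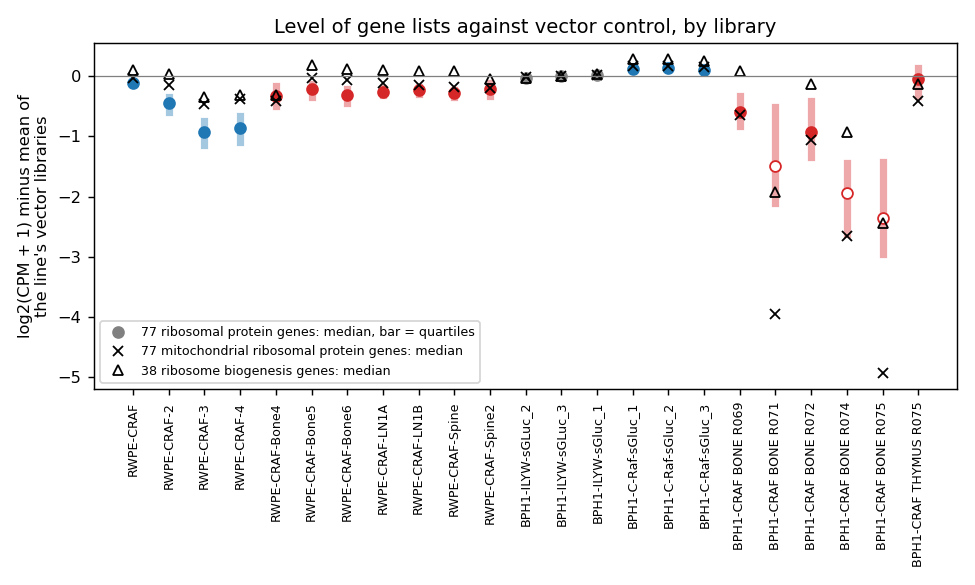
Median log2(CPM + 1) of 77 members in each library minus the mean of the vector libraries of the same cell line (y axis), with bars for the quartiles over genes; crosses and triangles are the medians of 77 mitochondrial ribosomal protein genes and 38 ribosome biogenesis genes. The 3 BPH-1 parental libraries lie at 0.11 to 0.14, the 4 RWPE-1 parental libraries at -0.11 to -0.93, and open points are the 3 libraries of few counts.

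In RWPE-1 no member passed the test between lines recovered from mice and the C-Raf cells before injection. Of 82 members tested 0 were called (edgeR quasi-likelihood test), where 0.0986% of 13185 genes were, 0.0758% as higher and 0.0228% as lower. DESeq2 called none. An unadjusted p below 0.05 was found for 28 members and for 1034 of the 13185 genes. The estimates leaned upward, with a median log2 fold change of 0.29 (0.01 for all genes) and 81 of 82 positive. For RPLP0 the metastasis-derived lines ran from 1358 to 1795 CPM with a median of 1701 CPM, inside the parental range of 785 to 1958 CPM. Its change of 0.43 did not pass (adjusted p = 0.667). RPS6 ran from 1336 to 1453 CPM, inside the parental range of 789 to 1642 CPM, with a change of 0.33 (adjusted p = 0.659). No member had all 7 metastasis-derived lines above, or all 7 below, the 4 parental libraries, as 0.655 and 1.07% of all genes had.

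The direction of these estimates differed between the tables that hold the RWPE-1 libraries. The tables hold different parental and different metastasis-derived libraries, so the part of either cannot be told apart. Leaving out any 1 library reversed neither RPLP0 (0.27 to 0.75) nor RPS6 (0.20 to 0.57). In the table of 3 parental and 4 metastasis-derived libraries the median was 0.45, and in the table of 1 parental and 3 metastasis-derived libraries it was -0.13, with none passing in either. With a term for the table the median was 0.27 and again none passed. RPL22L1 had the largest estimate, 0.55 (adjusted p = 0.344), and was the 1 member higher when parental replicate 1 was left out, at 0.79. Its 7 metastasis-derived lines lay between 25.8 and 32.9 CPM, close to parental replicate 1 at 31.2 CPM and above replicates 2 to 4 at 14.8 to 20.8 CPM. RPL39L was the 1 member with a negative estimate, -0.20 (adjusted p = 0.547).

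In BPH-1, 75 of 82 estimates for the metastasis-derived lines were negative but few passed, and the lines spread widely. With all 6 lines, 2 of 82 members were lower and none higher (edgeR quasi-likelihood test). Of 13525 genes 15.5% passed, 9.52% as higher and 6.02% as lower. An unadjusted p below 0.05 was found for 21 members and for 4349 of the 13525 genes. DESeq2 called 17 members lower and 2 higher, and its share of all genes is not given. The median log2 fold change was -1.09, read against a median of -0.19 for all genes. Other lists were lower too, with no test between the lists. The 77 mitochondrial ribosomal protein genes had a median of -1.26, all 77 were negative and 8 passed as lower. Oxidative phosphorylation genes had a median of -0.88 (4 of 76 lower) and ribosome biogenesis genes -0.86 (1 of 38 lower). For 48 of 82 members all 6 lines lay below the 3 parental libraries, as did 23.9% of all genes, and for 1 member all 6 lay above, as did 5.74%. For 55 members the 3 deeper lines lay below the parental libraries and for 3 above, against 32.8 and 27.6% of all genes. Fewer cells of a type and less RNA per cell cannot be told apart in such bulk libraries.

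RPSA was among the members that passed. It was at 768, 773 and 758 CPM in C-Raf parental cells, at 239, 131 and 359 CPM in BONE R069, BONE R072 and THYMUS R075, and at 33.0, 128 and 20.2 CPM in the shallow libraries, the last from 1 count. All 6 lines lay below all parental libraries. The log2 change was -2.36 ± 0.75 (SE, adjusted p = 0.0438). Leaving out any 1 parental library, or any 1 of BONE R069, BONE R072, BONE R074 and BONE R075, left it short of the threshold. Leaving out THYMUS R075 gave 12 members lower, with no share of all genes given for that fit.

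Without the 3 shallow libraries 16 of 82 members were lower and none higher, where 37.7% of 13450 genes passed, 21.0% as higher and 16.8% as lower, so the share of members called lower was near that of all genes. The median was then -0.51. RPSA, shown above, was then at -1.61 (adjusted p = 0.0167) and RPS2, another protein of the small subunit, at -0.84 (adjusted p = 0.0187), against -1.45 (adjusted p = 0.152) with all 6 lines. The lines differed among themselves. Against vector control the 77 members had a median of -0.60 in BONE R069, -0.93 in BONE R072 and -0.04 in THYMUS R075. The count of lower members was 48 without THYMUS R075, 34 (with 4 higher) without BONE R072 and 3 (with 1 higher) without BONE R069. No share of all genes is given for these fits, so the counts are not read as a result about the members.

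RPLP0 showed this spread at a single gene. It was at 2567, 2527 and 2505 CPM in C-Raf parental cells, at 1823 CPM in THYMUS R075, 1247 CPM in BONE R069 and 454 CPM in BONE R072, and its change of -1.48 with all 6 lines did not pass (adjusted p = 0.164), nor did that of -1.06 without the shallow libraries (adjusted p = 0.124). With BONE R072 or THYMUS R075 left out as well it passed, at -0.69 (adjusted p = 0.0188) and -1.51 (adjusted p = 0.0438). RPS6 was at 781, 518 and 406 CPM in the same 3 lines, with a change of -1.39 (adjusted p = 0.212) over the 6 and -0.72 (adjusted p = 0.0828) without the shallow libraries. It too passed with BONE R072 or THYMUS R075 left out as well, at -0.54 (adjusted p = 0.0472) and -1.01 (adjusted p = 0.00947). Some members did not follow. RPL39 was at 389, 332 and 577 CPM in BONE R069, BONE R072 and THYMUS R075 against 303, 318 and 309 CPM in parental cells, so the lines lay above. RPS14 was at 387, 231 and 605 CPM against 418, 413 and 401 CPM, on both sides.

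**Figure D4:**
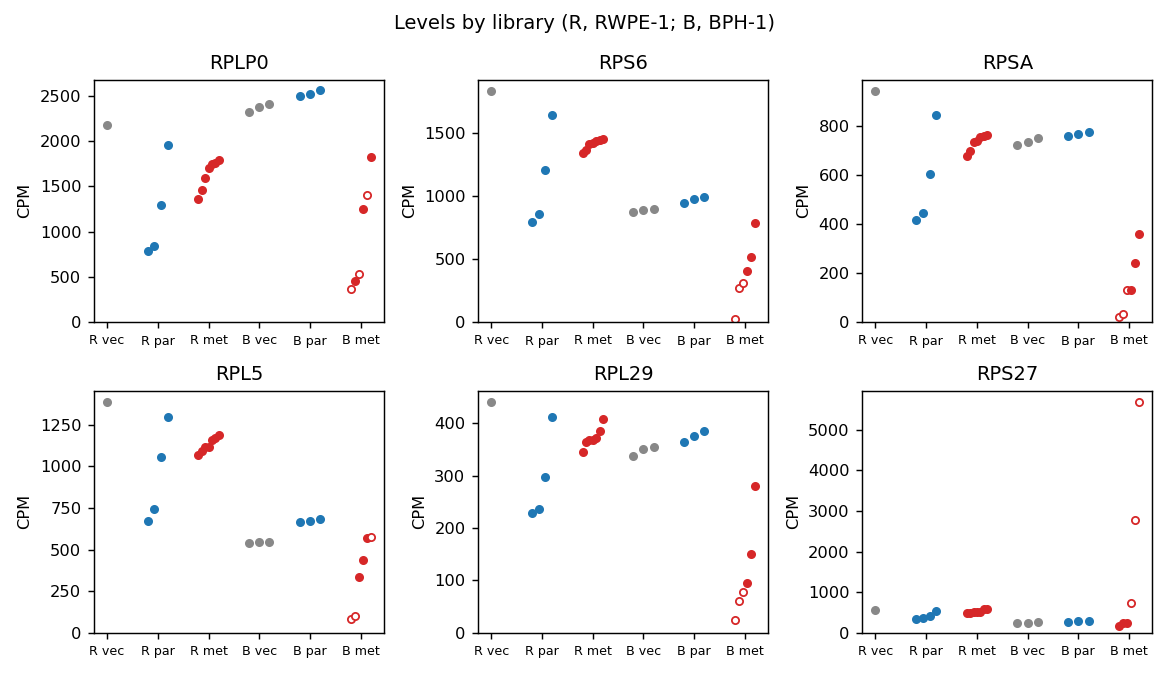
CPM of RPLP0, RPS6, RPSA, RPL5, RPL29 and RPS27 in each library (y axes from 0), by cell line and stage on the x axis (vec, vector control; par, C-Raf parental; met, metastasis-derived). Points are sorted within groups and open points are the 3 libraries of few counts; RPSA, RPL5 and RPL29 are lower in all 6 BPH-1 metastasis-derived lines than in the C-Raf parental libraries, and RPS27 is high only at open points.

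In the shallow libraries BONE R071 and BONE R075 a few members stood far above their parental level. RPS27 reached 2780 CPM (95% counting interval 2574 to 2998) in BONE R071 and 5684 CPM (5039 to 6389) in BONE R075, from 674 and 281 counts, against 275 to 284 CPM in parental cells and 158 to 253 CPM in the 3 deeper lines. RPL31, chosen after its values were seen, reached 2582 and 3398 CPM against 234 to 243 CPM. RPL11 was at 1778 and 1638 CPM and RPS19 at 982 and 1477 CPM in the same 2 libraries. In BONE R074 the gap was smaller or absent, with RPS27 at 745 CPM (601 to 912), RPL31 at 560 CPM, RPL11 at 424 CPM, below its parental 578 to 586 CPM, and RPS19 at 464 CPM, inside its parental 462 to 471 CPM. BONE R075 held 1 count each of RPSA and RPS6. The estimates over 6 lines, 2.31 for RPS27 (adjusted p = 0.161) and 2.18 for RPL31 (adjusted p = 0.123), did not pass, and without the shallow libraries they were -0.31 for RPS27 (adjusted p = 0.327) and 0.61 for RPL31 (adjusted p = 0.162). The intervals cover counting error only.

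Marker genes of other cell types also differed in the 6 lines, in both directions. Of the haematopoietic list 2 of 4 tested were higher and 1 lower, and the list took 0.000836 to 0.0617% of protein-coding counts against 0.0122 to 0.0123% in parental cells. SPI1 had counts in all 6 lines, at most 265, against at most 1 in parental cells, and HBB also had counts in all 6, at most 15, and none in parental cells, whereas CD74 fell and PTPRC, which defines leukocytes, was at 0 in 5 of the 6. Of the fibroblast list 2 of 3 tested were higher, and the list took 0.00270 to 0.0142% against 0.00120 to 0.00122%. COL1A1 (log2 change 2.82, adjusted p = 0.0132) and COL3A1 rose, and DCN and LUM were each at 0 in 4 of the 6 lines, where the shallow libraries can miss low levels. Of the endothelial list VWF was higher (4.80, adjusted p = 0.00407) and CDH5 lower, with 0 to 0.00755% against 0.000165 to 0.000180%. Of the 5 epithelial markers 3 were lower, at 0.0441 to 0.587% against 0.564 to 0.569%.

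Without the shallow libraries, a fit added after the data were seen, 1 of 3 haematopoietic markers tested was higher (SPI1) and 2 lower, the 1 fibroblast marker tested (COL1A1) was higher, VWF was higher and CDH5 lower, and of the epithelial markers KRT5 was higher and 3 were lower. In the 3 deeper lines the haematopoietic list took 0.000836 to 0.00467%, below parental cells, the fibroblast list 0.00419 to 0.00576% and the endothelial list 0.000249 to 0.00241%, both above parental cells. The part of these lists, of RN7SL1 and of the mitochondrially encoded genes in the lower member levels was not tested. The metastasis-derived BPH-1 libraries also fill a table of their own, so stage and table cannot be told apart.

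The change from parental to metastasis-derived cells was then compared between the lines in 1 model. It was lower in BPH-1 than in RWPE-1 for 23 of 82 members and higher for none. Of 14362 genes 29.1% passed, 12.2% as lower and 16.9% as higher. DESeq2 called 53 members lower and 1 higher, and its share of all genes is not given. The median difference of the members was -1.16 on the log2 scale. Mitochondrial ribosomal protein genes had a median of -1.04, with 34 of 77 lower, and ribosome biogenesis genes -0.80, with 6 of 38 lower. RPSA differed by -2.54 ± 0.65 (adjusted p = 0.00708), RPL29 by -1.90 (adjusted p = 0.0152) and RPL8 by -1.89 (adjusted p = 0.0177). Without the shallow libraries the difference of RPSA was -1.997 (adjusted p = 0.000403) and those of RPL29 and RPL8 were -1.44 (adjusted p = 0.0043) and -1.35 (adjusted p = 0.00706). In RWPE-1 the metastasis-derived lines had 678 to 764 CPM of RPSA and the parental libraries 417 to 845 CPM. Without the shallow libraries 51 members differed downward and none upward, where 44.5% of genes passed, 21.1% as lower. Leaving out 1 library moved the 23 to 12 (RWPE-1 parental replicate 3 or 4), 15 (BPH-1 parental replicate 1 or 2) and up to 50 (BPH-1 THYMUS R075). No share of all genes is given for those fits. Models over both cell lines gave no calls among 83 members. For C-Raf parental against vector control 0.241% of 15328 genes passed, 0.0913% as higher and 0.15% as lower, and DESeq2 called no member. There no member had an unadjusted p below 0.05, against 926 of the 15328 genes. For metastasis-derived against parental lines 2.47% passed, 1.94% as higher and 0.528% as lower, and DESeq2 called 1 member. There 7 members had an unadjusted p below 0.05, against 3438 of the 15328 genes.

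The C-Raf parental lines also differed from each other in how they weighted single members. Against BPH-1, 26 of 82 members were higher and 8 lower in RWPE-1, and 48 did not pass. Of 13515 genes 74% passed, 38.0% as higher and 36.0% as lower. Members thus passed less often than genes in general, in both directions. Small subunit genes had 15 higher and 3 lower with a median of 0.40, and large subunit genes 11 higher and 5 lower with a median of 0.03. Without RWPE-1 parental replicate 1 the counts were 24 higher and 27 lower, and without any 1 of the other libraries 19 to 33 higher and 3 to 5 lower. Shares of all genes are not given for these fits. Cell line, medium and table cannot be told apart in this comparison. RPS23, a protein of the decoding centre, differed most. It was at 297, 299 and 290 CPM in BPH-1 and at 1537, 1151, 837 and 838 CPM in RWPE-1, and the groups did not overlap. The log2 difference was 1.88 ± 0.22 (SE, adjusted p = 0.000151), and it was 1.88 with the counts of its 10 pseudogene rows added. In the vector control libraries, which were not used in that fit, RPS23 was at 1591 CPM in RWPE-1 and 259 to 265 CPM in BPH-1.

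RPL21, at 257, 257 and 256 CPM in BPH-1 and 798, 655, 503 and 536 CPM in RWPE-1, had the next largest difference, 1.28 (adjusted p = 0.000192). The paralogs RPS27L at 1.17 (adjusted p = 0.000377) and RPL39L at 0.82 (adjusted p = 0.000137) were also higher in RWPE-1, whereas RPL22L1 at -0.12 did not pass (adjusted p = 0.659). RPS27A and RPS18 differed by 1.02 and 0.90. Among the lower members RPLP0 stood out from the other stalk genes, at -1.06 ± 0.31 (adjusted p = 0.0143) against 0.11 for RPLP1 (adjusted p = 0.613) and 0.87 for RPLP2 (adjusted p = 0.00207). RPL6 differed by -0.99 (adjusted p = 0.00637), from 1754, 1788 and 1755 CPM in BPH-1 to 1259, 1012, 631 and 657 CPM in RWPE-1. In the vector libraries RPLP0 lay closer, at 2179 CPM in RWPE-1 and 2324 to 2408 CPM in BPH-1, and RWPE-1 parental replicate 1 at 1958 CPM was the nearest to BPH-1 of the 4. RPL15, RPS4X and RPL32 differed by -0.57, -0.57 and -0.51. Leaving out 1 library lost the call of RPL15 in 5 and that of RPL32 in 6 of 7 fits. In the vector libraries RPL6 was at 1340 CPM in RWPE-1 and 1527 to 1604 CPM in BPH-1.

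**Figure D5:**
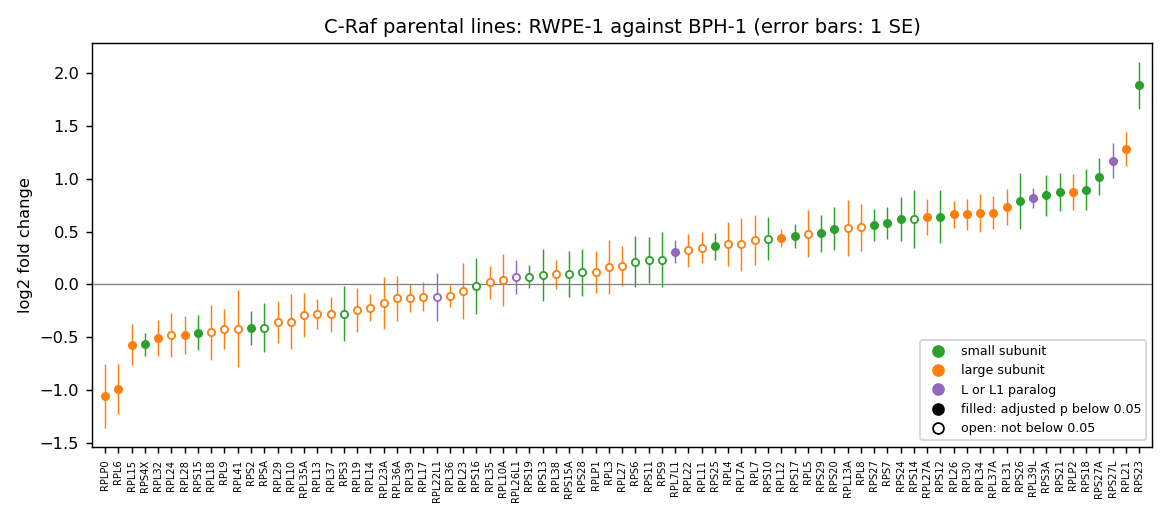
Log2 fold change of RWPE-1 against BPH-1 C-Raf parental libraries (y axis, 4 against 3) for 79 members ordered by size on the x axis, with error bars of 1 SE; filled points passed an adjusted p of 0.05. RPS23 lies highest at 1.88 and RPLP0 lowest at -1.06.

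Levels per kilobase used the median length of a gene's annotated protein-coding transcripts, whichever was expressed, so the order depends on the annotation. On that scale RPS2, RPLP0 and RPL6 were the most abundant members in BPH-1 parental cells, at 2401, 2291 and 1747 CPM per kilobase. In RWPE-1 parental cells they were RPL7A, RPS2 and RPS18, at 1853, 1804 and 1652. In both lines RPS27L, RPL39L, RPL22L1, RPL3L and RPL10L took the last 5 places at 35.1 CPM per kilobase or less. The count for RPL41 is uncertain because a second row of that name exists, and RPL17, RPL36A and RPS10 share exons with readthrough genes.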

How the data were processed

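Messenger RNA of 24 libraries was sequenced. The deposited values are expected counts per gene symbol, which the authors made with RSEM (the submitters' processing notes also name STAR, cutadapt, FastQC and hg38; versions not given in the sources used here), in 4 tables of 60448 symbols. They were rounded for the count models; 0 value columns belonged to no listed sample. Symbols were annotated with GENCODE 29 (36628 matched, 863 more by an older name), and 19211 protein-coding rows were analysed. RSEM divides reads between near-identical copies, and 76 members have pseudogene rows (931 in all), so levels of single members carry that uncertainty.

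Counts were scaled by TMM and given as CPM. Comparisons used the quasi-likelihood test of edgeR 4.0.16 (R 4.3.3) after filterByExpr, with Benjamini-Hochberg adjustment over all genes tested and a threshold of 0.05. Fits held only the groups compared, except that pooled fits held all 24 libraries with a term for cell line and the interaction held 20 parental and metastasis-derived libraries. Pipelines were run on simulated data with the same spread for all genes and planted changes larger than most reported here. Those runs do not bear on small changes. Non-overlap counts took genes with a mean of at least 1 CPM. A value of 0 was read as an upper limit of 3 counts, and 95% Poisson intervals cover counting error only.

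The text names 10 members of textbook role, the paralogs with their parents, the X-linked members and, per comparison, the 5 largest rises and falls among calls of at least 10 CPM. Other genes named are examples chosen after their values were seen. Members, lists and tests were chosen with earlier results of these data known. The overexpressed gene and some single genes are not reported here, but are kept in the counts of members. Replicate numbers of the BPH-1 vector and parental libraries did not pair them (correlations of deviations 0.05, -0.05 and -0.04), so the block stands only under the alternatives: DESeq2 1.42.0, ComBat-seq (sva 3.50.0), other scalings and filters, all genes, pseudogenes summed, and leaving out libraries. Fibroblast, haematopoietic and endothelial lists are reported for BPH-1 only.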

Additional observations from a re-analysis of the deposited data

Results flagged for a closer look

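Within groups of 4 to 10 libraries, 6 of 96 values tested had 1 library far from the others by Dixon's criterion, where chance gives about 1 in 20. In the RWPE-1 metastasis-derived lines these were Bone4 for RPL6 at 940 CPM, RPL7L1 at 190 CPM and RPL39L at 15.2 CPM, Bone6 for RPL32 at 302 CPM and Spine2 for RPL36A at 373 CPM. In the BPH-1 metastasis-derived lines it was the shallow library BONE R071 for RPLP2 at 61.9 CPM.

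The change from parental to metastasis-derived cells differed between BPH-1 and RWPE-1 for 23 of 82 members by the interaction test of edgeR, all as lower in BPH-1. Of 14362 genes 29.1% passed that test, 12.2% as lower and 16.9% as higher. The share of members called in either direction was therefore near that of all genes. RPSA was at -2.54, RPL29 at -1.90 and RPL8 at -1.89 on the log2 scale. The parental libraries moved in opposite directions from vector control in the cell lines, with a median shift of the 77 members, averaged over libraries, of 0.12 in BPH-1 and -0.59 in RWPE-1. Among the RWPE-1 parental libraries only replicate 1, at -0.11, shares a table with the vector library, and replicates 2 to 4, at -0.45, -0.93 and -0.87, are in another, so table is mixed into this shift. This second difference was not tested.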

How the results depend on the processing

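Across 48 single-gene results and their alternatives (779 values), 719 kept direction and side of the threshold, 29 lost the call, 11 gained it and 20 reversed. The counts of BPH-1 C-Raf parental against vector control stayed within 1.5 times under all alternatives run, 55 to 62 higher and 2 to 3 lower without 1 library, 57 and 3 with a replicate block. For BPH-1 metastasis-derived lines, 2 members lower became 17 (and 2 higher) with DESeq2, 1 with pseudogenes summed, 16 without the 3 shallow libraries, and 0 to 12 without 1 library. Without the shallow libraries and BONE R072 it was 34 lower and 4 higher, without THYMUS R075 48 lower, and without BONE R069 1 higher. These last fits were added after the data were seen. For the interaction, 23 lower became 53 (1 higher) with DESeq2, 41 with RLE size factors, 5 with at least 10 counts in every library, 51 without the shallow libraries and 12 to 50 (0 to 2 higher) without 1 library. Between the parental lines, 26 higher and 8 lower became 19 to 33 and 3 to 27 without 1 library, the highest lower count without RWPE-1 parental replicate 1. In RWPE-1 metastasis-derived lines, leaving out parental replicate 1 gave 1 higher in place of 0. Over both lines, metastasis-derived against parental gave 1 higher with ComBat-seq and 1 lower with DESeq2. The cause of these differences was not tested. Shares of all genes are given above only for the main fits and for the fits without only the 3 shallow libraries. The other counts of members here have no share of all genes beside them.

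In BPH-1 metastasis-derived lines RPS27 reversed to -0.31 without the shallow libraries (-0.12, -0.45 and -0.39 without BONE R069, BONE R072 or THYMUS R075 as well) and -0.041 with at least 10 counts in every library. RPL11 reversed to -0.68 (-0.68, -0.46 and -0.96) and -1.46, and RPS19 to -0.90 (-0.84, -0.70 and -1.22) and -1.57, and without 1 library it ran from -0.0495 (BONE R075) to 0.49 (BONE R074). In the RWPE-1 table with 1 parental library RPLP0 reversed to -0.16 and RPS6 to -0.17. Without 1 library RPL36A ran from -0.000116 to 0.0245 in BPH-1 C-Raf parental cells, negative without parental replicate 3, and RPLP1 from -0.0864 to 0.23 between the lines, negative without RWPE-1 parental replicate 1. The member share in BPH-1 parental cells moved from 5.21 to 5.28% with pseudogenes, 5.09% of all counts and 5.39% without mitochondrially encoded genes. In BPH-1 vector control it moved from 5.03 to 4.93% of all counts and 5.19% without those genes, and in the RWPE-1 vector library from 7.66 to 7.77, 7.49 and 7.79%.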
